A study of Mus musculus with 6 samples.

Results

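The nuclear-encoded subunits of the mitochondrial respiratory chain were examined in BV2 cells, an immortalised mouse microglial line, after telmisartan and lipopolysaccharide (LPS) with and without GW9662. Members were the genes whose single annotated symbol follows the naming of subunits of complex I (Nduf with a, b, c, s or v and a number), complex II (Sdha to Sdhd), complex III (Uqcr), complex IV (Cox4 to Cox8 with a, b or c) and complex V (Atp5). Each gene was represented by its brightest probe set. The rule matched 78 genes, of which 33 belong to complex I, 4 to complex II, 8 to complex III, 15 to complex IV and 18 to complex V. A mean log2 level of at least 6.15 over the 6 arrays, the median of all probe sets, was reached by 71 of them (32, 4, 7, 11 and 17 in that order), among 12212 such genes of 22180 with a symbol. None of the 71 subunits differed between the groups past an adjusted p of 0.05 in limma. Of all 12212 genes tested, only 3 passed it as higher (0.0246%) and 2 as lower (0.0164%). The log2 differences of the subunits lay between -0.20 and 0.15.

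The labels give 3 samples as Telmisartan+GW9662+LPS (here Tel+GW9662+LPS) and 3 as Telmisartan+LPS (Tel+LPS). All 6 were of the WT genotype per the labels, received the drugs 2 h ahead of a 1 h exposure to LPS, and were hybridised 1 sample to an array. Telmisartan, an angiotensin receptor blocker, also partly activates PPARG, a nuclear receptor that GW9662 blocks irreversibly. LPS, a component of bacterial outer membranes, acts through TLR4. The labels give no doses, and BV2 is a single transformed line. Both groups carried telmisartan and LPS, so the comparison measures GW9662 on top of them and neither of these agents alone. The protocol calls the samples of a group independent without saying what they shared, so the p-values rest on the spread between samples that may differ for technical reasons only. In RNA of whole cultures, fewer cells of a kind and less RNA per cell cannot be told apart, and the quantile normalization that the authors applied hides a shift of most transcripts in 1 direction. The 6 arrays correlated at 0.990 to 0.996. Tel+LPS replicate 3 and Tel+GW9662+LPS replicate 2 stood apart on the first principal component (14.6 and 7.55, against -8.15 to -0.98 for the other 4 arrays), which held 42.8% of the variance. All 12 of 12 microglial marker genes were above the level threshold, as were 2 of 6 astrocyte, 2 of 6 neuron, 3 of 6 oligodendrocyte, 2 of 6 fibroblast and 1 of 6 lymphocyte markers.

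The respiratory chain passes electrons from NADH through complex I, and from succinate through complex II, to ubiquinone, then through complex III to cytochrome c and through complex IV to oxygen. Complexes I, III and IV pump protons across the inner mitochondrial membrane, and complex V, the ATP synthase, lets them return and makes ATP. Most subunits are encoded in the nucleus and imported, while a small set of membrane-embedded core subunits of complexes I, III, IV and V comes from the mitochondrial genome. The nuclear genes are known targets of the transcription factors NRF1, GABP, YY1 and the oestrogen-related receptors, which the PGC-1 coactivators bind. PGC-1 coactivators also bind PPARG. Microglia and macrophages stimulated with LPS are known to shift from oxidative phosphorylation towards glycolysis.

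Of the 71 subunits, 32 had a positive difference and 39 a negative one, and the median difference was -0.011. Over all genes tested the median was -0.019, and 41.2% of the differences were positive. After Benjamini-Hochberg adjustment over all 12212 genes in limma, 0 subunits passed 0.05 as higher, where 0.0246% of all genes did, and 0 as lower, where 0.0164% did. The smallest adjusted p of any subunit was 0.994. At an unadjusted limma p under 0.05, 1 subunit was higher (1.41%, against 1.66% of all genes) and 0 were lower, against 2.78%. That subunit was Ndufs3. The 3 arrays of Tel+GW9662+LPS lay wholly above those of Tel+LPS for 2 subunits, Ndufs3 and Uqcrc1 (2.82%, against 4.01% of all genes), and wholly below for 0, against 5.36%. None of these shares exceeded that of all genes tested. With array weights, 5 subunits were higher at an unadjusted limma p under 0.05 (7.04%, against 6.31% of all genes) and 0 were lower, against 10.2%.

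The intervals bound what a difference could have been. The 95% interval of the difference stayed within 0.25 of 0 on the log2 scale for 42 of 71 subunits (59.2%), against 47.2% of all genes tested. It stayed within 0.5 of 0 for 69, and the exceptions were Ndufc1 (-0.54 to 0.13) and Cox7b (-0.52 to 0.19). The fold changes ran from 0.869 for Ndufc1 to 1.11 for Ndufs3. These were also the only 2 subunits outside the 5th and 95th percentiles of all genes tested, -0.17 and 0.13. The plot of subunit differences by complex shows each difference with its interval.

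**Figure D1:**
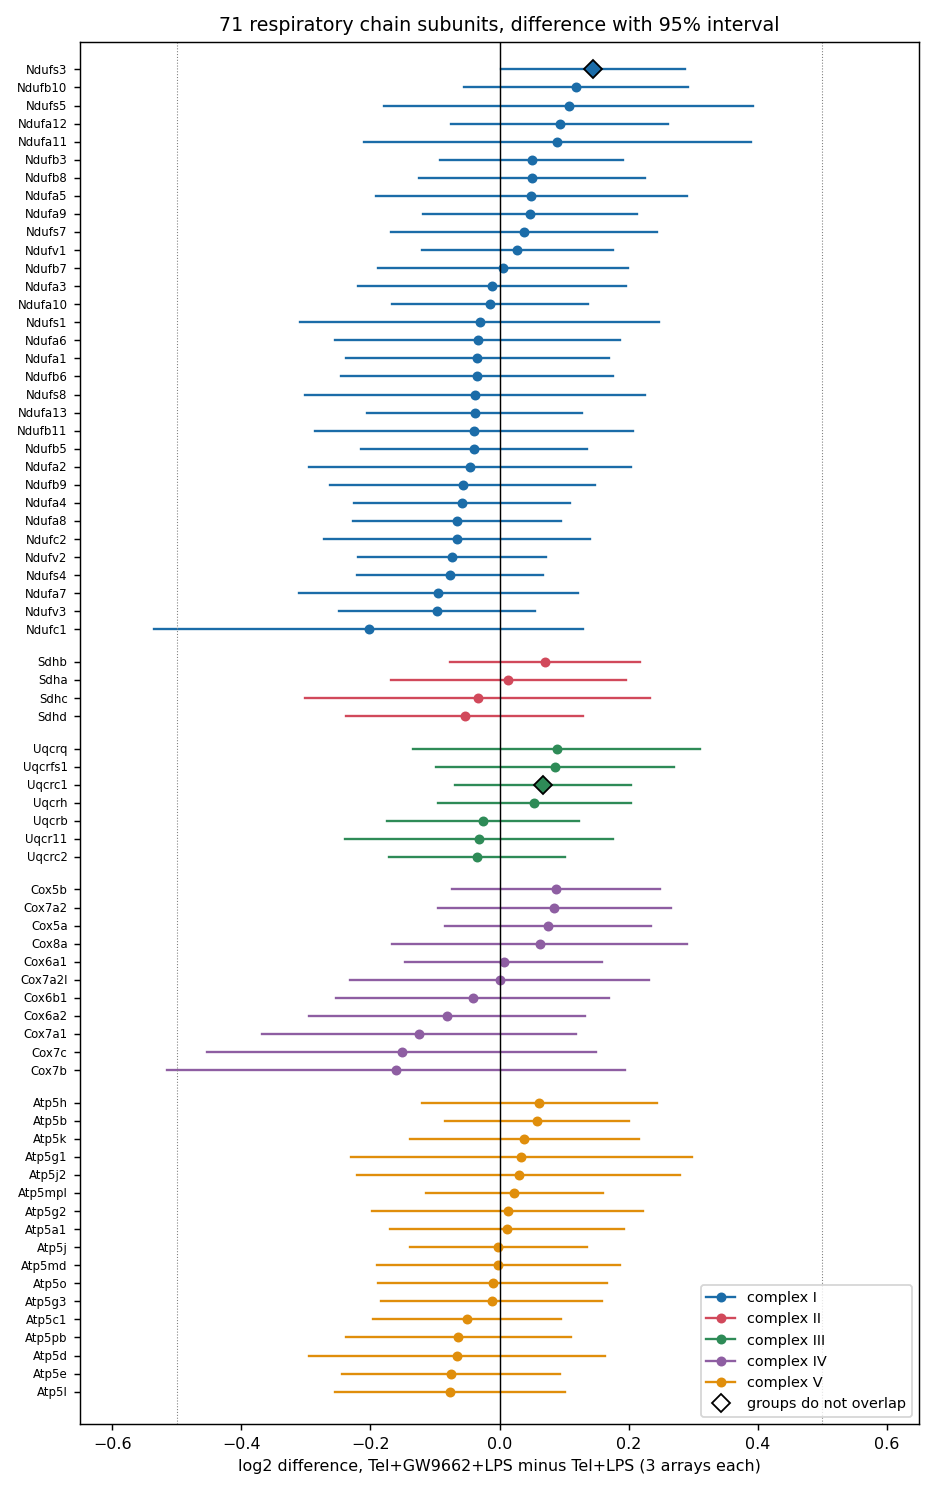
Difference in log2 level, Tel+GW9662+LPS minus Tel+LPS (horizontal axis), for the 71 subunits, ordered by complex and size. Points are differences over 3 arrays a group, lines are 95% intervals of the limma fit, diamonds mark the 2 subunits whose groups did not overlap, and dotted lines stand at 0.5 on either side of 0. Every interval but that of Ndufs3 includes 0.

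The windows around the start sites of 5 subunit genes are shown because the transcription factors named above are known to act there and because the mean subunit level differed from array to array, as given further on. In each complex the gene shown is the one with the smallest p among those with exactly 1 window in the table. The sequences are RefSeq's for GRCm38.p6, 300 bases each, lying across the annotated start and mostly upstream of it, in lower case, 5′ to 3′ in the direction of the gene. Capitals mark matches, on either strand, to the core letters of motifs of NRF1 (a strict palindrome, the capitals nearest the end of the Uqcrc1 window, and a looser form with 1 base free, which includes it), GABP and other ETS factors (CGGAAG), NF-Y (CCAAT), SP1 (GGGCGG), YY1 (AAGATGGC) and the TATA box (TATAAA). Ndufs3 lies at chr2:90904672-90904971 (minus strand), Sdhb at chr4:140961021-140961320 (plus strand), Uqcrc1 at chr9:108936398-108936697 (plus strand), Cox5b at chr1:36691237-36691536 (plus strand) and Atp5e at chr2:174464052-174464351 (minus strand).
Ndufs3: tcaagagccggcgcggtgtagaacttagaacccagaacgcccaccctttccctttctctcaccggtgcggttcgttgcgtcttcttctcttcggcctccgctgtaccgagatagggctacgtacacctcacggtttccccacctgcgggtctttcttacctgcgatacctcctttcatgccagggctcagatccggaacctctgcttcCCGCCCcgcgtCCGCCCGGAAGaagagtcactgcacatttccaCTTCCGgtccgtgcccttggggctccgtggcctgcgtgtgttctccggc
Sdhb: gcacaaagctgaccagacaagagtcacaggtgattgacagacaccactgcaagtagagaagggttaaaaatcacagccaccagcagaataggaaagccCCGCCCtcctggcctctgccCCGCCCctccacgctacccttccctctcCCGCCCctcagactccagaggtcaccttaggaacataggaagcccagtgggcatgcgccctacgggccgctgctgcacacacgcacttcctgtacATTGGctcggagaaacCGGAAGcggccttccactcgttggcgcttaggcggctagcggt
Uqcrc1: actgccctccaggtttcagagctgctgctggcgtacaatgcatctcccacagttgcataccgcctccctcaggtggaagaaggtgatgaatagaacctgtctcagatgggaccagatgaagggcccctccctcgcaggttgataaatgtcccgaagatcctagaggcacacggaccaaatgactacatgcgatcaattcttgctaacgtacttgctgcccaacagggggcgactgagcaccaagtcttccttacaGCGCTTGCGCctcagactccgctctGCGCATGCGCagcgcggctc
Cox5b: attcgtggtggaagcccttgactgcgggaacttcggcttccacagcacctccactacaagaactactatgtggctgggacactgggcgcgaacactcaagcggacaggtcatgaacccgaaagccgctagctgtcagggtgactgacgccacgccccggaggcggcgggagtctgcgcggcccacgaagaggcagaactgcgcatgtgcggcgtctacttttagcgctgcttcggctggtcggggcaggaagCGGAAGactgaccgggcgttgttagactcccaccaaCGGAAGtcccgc
Atp5e: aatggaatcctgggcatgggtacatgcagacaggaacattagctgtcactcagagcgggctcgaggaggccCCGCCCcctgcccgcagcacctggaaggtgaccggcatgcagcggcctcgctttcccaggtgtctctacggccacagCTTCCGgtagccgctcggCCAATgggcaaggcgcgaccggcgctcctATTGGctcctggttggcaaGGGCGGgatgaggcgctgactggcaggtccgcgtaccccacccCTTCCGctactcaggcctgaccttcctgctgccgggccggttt

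These windows differ in the motifs they hold. The Ndufs3 window has matches to the ETS and SP1 letters, of which an adjoining pair overlap in the longest run of capitals. The Sdhb and Atp5e windows have ETS, NF-Y and SP1 matches, the Cox5b window has ETS matches only, and the Uqcrc1 window has 2 matches to the loose NRF1 letters close to the start, 1 of which is also strict. Of the 71 subunits, 61 had a window, against 9594 of all genes tested. The strict NRF1 letters occurred in 5 of the 61 (8.20%, against 2.27% of genes tested and 1.07% of the 27025 genes in the table), namely Ndufa11, Uqcrc1, Cox6a1, Atp5k and Atp5g2. The loose NRF1 form occurred in 15 (24.6%, against 11.2% and 5.19%). ETS letters were found in 28 (45.9%, against 33.9% and 18.8%) and YY1 letters in 9 (14.8%, against 5.14% and 3.19%). The complexes differed in both. ETS letters were in 8 of 29 windows of complex I (27.6%), 2 of 3 of II, 2 of 4 of III, 6 of 10 of IV and 10 of 15 of V. YY1 letters were in 6 windows of complex I, 3 of V and 0 of the others. NF-Y letters were found in 24 (39.3%, against 42.0% and 41.1%), SP1 letters in 25 (41.0%, against 66.6% and 38.2%) and TATA letters in 6 (9.84%, against 8.75% and 15.7%). The median GC content was 58.7% for the subunit windows and 61.7% for all genes tested. A match is a description of these letters and not a binding site.

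Complex I takes electrons from NADH, and 32 of its nuclear subunits were tested. Of these, 12 had a positive and 20 a negative difference, with a median of -0.034. Ndufs3, a core subunit of the arm that reaches the ubiquinone site, was at 7.74, 7.71 and 7.67 on the Tel+GW9662+LPS arrays, against 7.56, 7.52 and 7.61 on the Tel+LPS arrays. The groups did not overlap, and the difference was 0.15 ± 0.062 (SE), 1.11-fold, with an unadjusted limma p of 0.0465 and an adjusted p of 0.994. Its difference stayed between 0.12 and 0.17 when each array was left out, but the unadjusted p passed 0.05 only where Tel+LPS replicate 3 was the one left out (0.0372).

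The 5 other core subunits described here lay close to 0. Ndufv1, which binds NADH and the flavin that first accepts its electrons, was at 9.91, 9.85 and 9.93 on the Tel+GW9662+LPS arrays, against 9.83, 9.94 and 9.84 on the Tel+LPS arrays, a difference of 0.028 ± 0.064. Ndufv2, an iron-sulfur neighbour of Ndufv1, differed by -0.073 ± 0.064, and Ndufs1, the large iron-sulfur subunit, by -0.030 ± 0.12. The groups of all 3 overlapped. Ndufs7 and Ndufs8, which carry the iron-sulfur clusters nearest to ubiquinone, differed by 0.038 ± 0.090 and -0.038 ± 0.11. The differences of Ndufs1, Ndufs7 and Ndufs8 changed sign with an array left out, over ranges of -0.13 to 0.077, -0.039 to 0.10 and -0.15 to 0.081.

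The accessory subunits of complex I surround the core and stabilise it. Ndufb10, of the membrane arm, was at 7.96, 7.94 and 7.98 on the Tel+GW9662+LPS arrays, against 7.81, 7.98 and 7.74 on the Tel+LPS arrays. Only Tel+LPS replicate 2 reached the Tel+GW9662+LPS range, and the difference was 0.12 ± 0.076 (adjusted p = 0.994 in limma). Ndufv3, of the NADH-binding module, was at 8.72, 8.64 and 8.62 on the Tel+GW9662+LPS arrays, against 8.72, 8.83 and 8.73 on the Tel+LPS arrays, a difference of -0.097 ± 0.066. Its Tel+LPS replicate 1 met the highest Tel+GW9662+LPS array. Ndufc1, a small subunit of the membrane arm, had the difference farthest from 0, -0.20 ± 0.14. It was at 8.29, 8.17 and 8.32 on the Tel+GW9662+LPS arrays, against 8.48, 8.77 and 8.13 on the Tel+LPS arrays. Tel+LPS replicates 2 and 3 were its highest and lowest arrays, and the difference was -0.37 without replicate 3 and -0.047 without replicate 2. Ndufs4, whose loss causes a Leigh-like disease in mice, differed by -0.076 ± 0.063, and Ndufa13, also known as GRIM-19, by -0.038 ± 0.073. The other accessory subunits lay between -0.095 (Ndufa7) and 0.11 (Ndufs5), with overlapping groups.

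Complex II, succinate dehydrogenase, also serves the tricarboxylic acid cycle and has nuclear subunits only. Sdhb, its iron-sulfur subunit, was at 10.04, 10.02 and 10.13 on the Tel+GW9662+LPS arrays, against 9.98, 9.95 and 10.04 on the Tel+LPS arrays, a difference of 0.070 ± 0.064 (adjusted p = 0.994 in limma). Sdha, the flavoprotein that oxidises succinate, was at 11.40, 11.52 and 11.36 on the Tel+GW9662+LPS arrays, against 11.41, 11.30 and 11.52 on the Tel+LPS arrays, a difference of 0.014 ± 0.079. The arrays of the groups interleaved in both genes. The membrane anchors that hold the ubiquinone site, Sdhc and Sdhd, differed by -0.034 ± 0.12 and -0.054 ± 0.080. The arrays of Sdhc ran from 10.70 on Tel+LPS replicate 3 to 11.13 on Tel+LPS replicate 2, so that 1 group spanned the other. The median of the 4 subunits was -0.010, and Sdha, Sdhc and Sdhd changed sign with an array left out (-0.040 to 0.069, -0.16 to 0.051 and -0.088 to 0.0091).

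Complex III passes electrons from ubiquinol to cytochrome c. Its 7 tested subunits had a median difference of 0.054, with 4 positive and 3 negative, and it was the complex whose median lay farthest above that of all genes. Uqcrc1, a core protein on the matrix side, was at 11.03, 11.04 and 11.02 on the Tel+GW9662+LPS arrays, against 10.98, 10.99 and 10.92 on the Tel+LPS arrays. These groups did not overlap, with means of 11.03 ± 0.011 in Tel+GW9662+LPS cells and 10.96 ± 0.039 in Tel+LPS cells (log2 level, SD, n = 3 each), but the difference of 0.067 ± 0.059 had an unadjusted limma p of 0.293. After median centring of the arrays, the Tel+GW9662+LPS arrays lay wholly above for 1 subunit, Ndufs3 (1.41%, against 4.71% of all genes), and no longer for Uqcrc1, and wholly below for 0, against 4.63%. After a repeated quantile normalization they lay wholly above for 6 (8.45%, against 6.21% of all genes), namely Ndufs3, Uqcrc1, Sdhb, Cox5a, Atp5b and Atp5mpl, and wholly below for 0, against 4.29%. Uqcrc2, the partner of Uqcrc1, differed by -0.035 ± 0.059, with a negative sign. Uqcrfs1, the Rieske iron-sulfur protein, was at 8.67, 8.92 and 8.78 on the Tel+GW9662+LPS arrays, against 8.65, 8.70 and 8.77 on the Tel+LPS arrays, a difference of 0.087 ± 0.080. Uqcrq and Uqcrh, small subunits of which Uqcrh is the hinge protein near cytochrome c1, differed by 0.089 ± 0.097 and 0.054 ± 0.065, and Uqcrb and Uqcr11 by -0.026 ± 0.065 and -0.032 ± 0.091. Without Tel+LPS replicate 3 the median of complex III was -0.0090, and the difference of Uqcrq was then -0.0090.

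Complex IV, cytochrome c oxidase, reduces oxygen. Its 11 tested subunits had a median difference of 0.00066, and the differences lay between -0.16 for Cox7b and 0.087 for Cox5b. Cox5b, which binds zinc on the matrix side, was at 11.64, 11.57 and 11.66 on the Tel+GW9662+LPS arrays, against 11.62, 11.55 and 11.44 on the Tel+LPS arrays, a difference of 0.087 ± 0.070. Cox5a, its neighbour, differed by 0.075 ± 0.070. Cox7c, a single-span subunit, was at 7.13, 7.48 and 7.17 on the Tel+GW9662+LPS arrays, against 7.24, 7.35 and 7.66 on the Tel+LPS arrays, a difference of -0.15 ± 0.13. Within each group of Cox7c 1 array stood above the other 2, and these were the arrays apart on the first principal component. Its difference was -0.029 without Tel+LPS replicate 3 and -0.26 without Tel+GW9662+LPS replicate 2. Cox7b was at 10.01, 9.68 and 9.86 on the Tel+GW9662+LPS arrays, against 9.90, 10.37 and 9.77 on the Tel+LPS arrays, a difference of -0.16 ± 0.15. Its highest array was Tel+LPS replicate 2 and its lowest Tel+GW9662+LPS replicate 2, and the difference was 0.019 without Tel+LPS replicate 2. Cox8a and Cox6b1 differed by 0.062 ± 0.10 and -0.041 ± 0.092, and Cox8a was -0.034 without Tel+LPS replicate 3. Ndufa4, which carries a complex I name and is now regarded as a subunit of complex IV, differed by -0.058 ± 0.073.

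Several complex IV subunits exist in alternative genes for different tissues. The ubiquitous or liver-type genes were Cox6a1 (mean log2 level 12.72, difference 0.0063 ± 0.067), Cox7a2 (9.55, 0.085 ± 0.078) and Cox8a (11.51). The heart and muscle genes were Cox6a2 (6.63, -0.082 ± 0.093) and Cox7a1 (6.75, -0.12 ± 0.11), both little above the threshold, and Cox8b (5.28), below it. Levels of different probe sets cannot be set against each other, so no ratio of isoforms is given. Cox7a1 was at 6.75, 6.61 and 6.70 on the Tel+GW9662+LPS arrays, against 6.81, 7.02 and 6.60 on the Tel+LPS arrays, and Tel+LPS replicates 2 and 3 were its highest and lowest arrays, so that its difference was -0.019 without replicate 2 and -0.23 without replicate 3. Cox7a2l, a relative of Cox7a2 that joins complexes III and IV into supercomplexes, differed by 0.00066 ± 0.10. The testis genes Cox6b2 (5.83), Cox7b2 (3.19) and Cox8c (4.48) were below the threshold, as was Ndufa4l2 (5.31), a relative of Ndufa4 known to be induced by hypoxia. The difference of Cox6a1 changed sign without Tel+LPS replicate 3 (-0.038) and that of Cox6a2 without Tel+GW9662+LPS replicate 2 (0.0056).

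**Figure D2:**
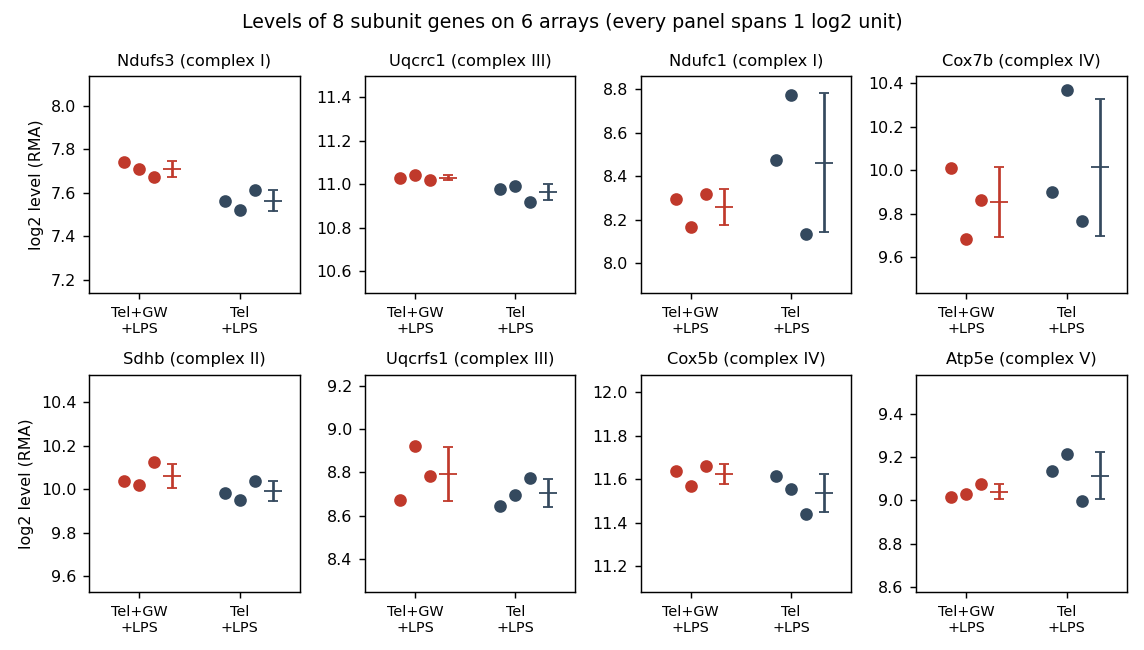
Log2 level (vertical axis) of 8 subunit genes on each array, with Tel+GW9662+LPS on the left and Tel+LPS on the right of every panel, and every panel spanning the same range. Points are arrays, and the bars beside them give the mean and SD (n = 3). Only Ndufs3 and Uqcrc1 have groups that do not overlap. In every panel but that of Ndufs3, the Tel+LPS arrays span more than the difference between the groups.

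Complex V consists of the catalytic F1 head, the central and peripheral stalks and the membrane ring. Its 17 tested subunits had a median difference of -0.0016 (8 positive, 9 negative) and kept within 0.077 of 0. Atp5b, the catalytic beta subunit, was at 12.71, 12.69 and 12.64 on the Tel+GW9662+LPS arrays, against 12.57, 12.67 and 12.63 on the Tel+LPS arrays, a difference of 0.058 ± 0.062. Atp5a1, the alpha subunit, was at 12.44, 12.54 and 12.28 on the Tel+GW9662+LPS arrays, against 12.41, 12.38 and 12.43 on the Tel+LPS arrays, a difference of 0.012 ± 0.079. Both groups overlapped in each gene, and Atp5a1 changed sign with an array left out (-0.049 to 0.083). Atp5c1, Atp5d and Atp5e, the gamma, delta and epsilon subunits of the central stalk, differed by -0.050 ± 0.064, -0.065 ± 0.10 and -0.075 ± 0.074. Atp5e was at 9.01, 9.03 and 9.08 on the Tel+GW9662+LPS arrays, against 9.13, 9.21 and 8.997 on the Tel+LPS arrays, where Tel+LPS replicate 3 was lowest of all 6. In the peripheral stalk, Atp5pb, the b subunit, differed by -0.064 ± 0.076, Atp5h, the d subunit, by 0.061 ± 0.079, and Atp5o, which fixes the stalk to the head, by -0.011 ± 0.077.

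The c subunit of the membrane ring is made from Atp5g1, Atp5g2 and Atp5g3, which encode the same mature protein. Atp5g1 was at 7.09, 7.30 and 7.29 on the Tel+GW9662+LPS arrays, against 7.23, 7.39 and 6.96 on the Tel+LPS arrays, a difference of 0.034 ± 0.12. Atp5g2 was at 11.96, 11.96 and 11.95 on the Tel+GW9662+LPS arrays, against 12.00, 12.09 and 11.74 on the Tel+LPS arrays, a difference of 0.012 ± 0.092. The Tel+GW9662+LPS arrays of Atp5g2 spanned 0.0093 and its Tel+LPS arrays 0.34, the Tel+LPS ones lying on both sides. Atp5g3 differed by -0.012 ± 0.075. None of the 3 kept its sign when single arrays were left out (-0.084 to 0.13, -0.087 to 0.085 and -0.067 to 0.020). Atp5l and Atp5k, the g and e subunits that help the synthase form dimers, differed by -0.077 ± 0.077 and 0.038 ± 0.077. Atpif1, the inhibitor of ATP hydrolysis and no member by its name, differed by 0.045 ± 0.062.

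The arrays of a group differed among themselves more than the groups did. Each subunit's level was taken relative to its mean over the 6 arrays and averaged over the 71 subunits. This average was -0.026, -0.0024 and 0.018 on Tel+GW9662+LPS replicates 1 to 3, against -0.029, 0.083 and -0.045 on Tel+LPS replicates 1 to 3. Tel+LPS replicate 2 was thus high, and Tel+LPS replicate 3 was low. The group means were -0.0033 ± 0.022 for Tel+GW9662+LPS and 0.0033 ± 0.070 for Tel+LPS (SD, n = 3 each). On Tel+LPS replicate 2 the average was 0.099 for complex I, 0.030 for complex II, 0.043 for complex III, 0.11 for complex IV and 0.065 for complex V. It was the highest array of 4 complexes, and complex II was highest on Tel+GW9662+LPS replicate 3 (0.038). Over all genes tested the same average was -0.00065 on Tel+LPS replicate 2.

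**Figure D3:**
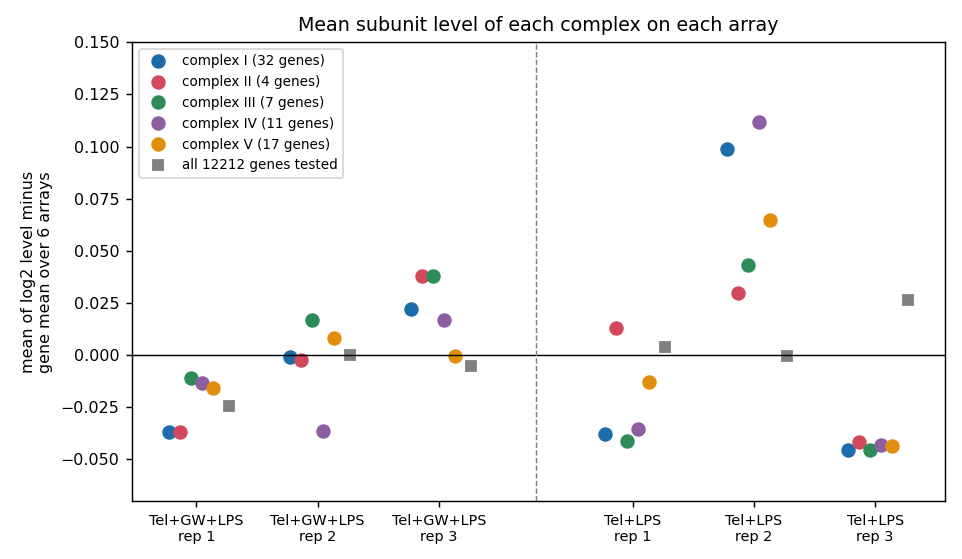
Mean over the subunits of each complex of the log2 level minus the gene's mean over the 6 arrays (vertical axis), for each array, with Tel+GW9662+LPS on the left and Tel+LPS on the right. Coloured points are complexes and grey squares all 12212 genes tested. Tel+LPS replicate 2 lies highest for complexes I, III, IV and V, and all 5 complexes lie below 0 on Tel+LPS replicate 3.

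Tel+LPS replicate 2 was the highest of the 6 arrays for 31 of 71 subunits (43.7%), against 18.0% of all genes tested. It lay above the gene's mean in 55 subunits (77.5%, against 48.5%). Tel+LPS replicate 3 was the lowest array for 24 subunits (33.8%, against 19.8%). The SD was larger among the Tel+LPS arrays than among the Tel+GW9662+LPS arrays for 50 subunits (70.4%, against 54.5%). Subunits share arrays and are no replicates, so these counts carry no test. Between Tel+LPS replicates 3 and 2, taken as replicate 3 minus replicate 2, the subunits differed by -0.64 (Ndufc1) to 0.40 (Ndufs1), with a median of -0.11, against 0.019 over all genes. This difference between replicates was more positive for longer genes, by the length of the gene, from its first to its last annotated base. Across the 71 subunits, Pearson's r with the log10 length was 0.377 and Spearman's rho 0.464, and across 12148 genes tested they were 0.25 and 0.291. The points share 2 arrays, genes are not independent replicates, and the part of gene length in the spread was not tested.

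The sign of the median depended on single arrays and on the scaling. With all 6 arrays, the median of the subunits was 0.0039 after median centring and 0.010 after repeated quantile normalization. It was negative in the other settings that kept all arrays. It was 0.012 without Tel+GW9662+LPS replicate 1, and negative without replicate 2 (-0.0038) or 3 (-0.019) of that group. It was also negative without Tel+LPS replicate 1 (-0.011) or 3 (-0.034). Without Tel+LPS replicate 2 the median difference of the 71 subunits was 0.041 and that of complex I 0.057, where all arrays gave -0.011 and -0.034. That array was the highest for 31 of the subunits, so leaving it out raises their differences by construction. Without it, the Tel+GW9662+LPS arrays lay wholly above the remaining Tel+LPS arrays for 12 subunits (16.9%, against 7.93% of all genes) and wholly below for 0 (against 11.6%). Without Tel+LPS replicate 3 these counts were 4 higher (5.63%, against 8.74%) and 8 lower (11.3%, against 12.5%). Without both arrays that stood apart, 6 subunits were higher (8.45%, against 14.4%) and 19 lower (26.8%, against 24.7%). Without Tel+GW9662+LPS replicates 1, 2 and 3 in turn, the shares higher were 7.04%, 4.23% and 7.04% (against 7.32%, 8.79% and 6.69%). The shares lower were 2.82%, 11.3% and 1.41% (against 8.29%, 16.7% and 10.1%). Without Tel+LPS replicate 1, 4.23% were higher (against 7.21%) and 7.04% lower (against 8.84%). In none of these did a subunit pass an adjusted p of 0.05 in limma, where 0 of all genes passed as higher and 0 to 2 as lower.

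Some subunits were left out by the naming rule or the annotation. Ndufab1, an acyl carrier protein in complex I, differed by 0.037 ± 0.084, Cyc1, cytochrome c1 of complex III, by 0.077 ± 0.076, and Cox4i1, the largest nuclear subunit of complex IV, by -0.0015 ± 0.063. Cox4i2, its isoform known from lung, was below the threshold (6.05). Probe sets that share symbols with other genes were not among the 12212 genes of the fit, and their differences between group means were -0.0057 for the brighter Cox6c, 0.058 for Ndufb2, -0.054 for Ndufb4, -0.071 for the brighter Ndufs6 and 0.048 for Uqcr10. The groups of all 8 overlapped. A probe set shared by Ndufs1 and an antisense gene, Ino80dos, was at 6.42, 6.64 and 6.40 on the Tel+GW9662+LPS arrays, against 6.65, 6.69 and 6.92 on the Tel+LPS arrays, with groups that did not overlap and a difference of -0.26, beside -0.030 for the probe set of Ndufs1 alone. Which of its 2 genes this probe set measured cannot be told apart.

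The mitochondrial genome encodes the partner subunits, and 10 of its 13 genes were found and tested. Their median difference was 0.019, and 0 were called higher and 0 lower, against 0.0246% and 0.0164% of all genes tested. ND6, a membrane subunit of complex I and the one encoded on the light strand, was at 9.75, 10.01 and 10.02 on the Tel+GW9662+LPS arrays, against 10.28, 10.20 and 10.07 on the Tel+LPS arrays. The groups did not overlap, and the difference was -0.25 ± 0.094 with an unadjusted limma p of 0.0268 and an adjusted p of 0.994. ND3, another complex I subunit, was also wholly below, by -0.066 ± 0.058. Of the 10 genes, 2 were thus wholly below and 0 wholly above, against 5.36% and 4.01% of all genes tested. The 8 other genes, ND1, ND2, ND4, ND4L, ND5, CYTB, COX1 and COX3, lay between -0.0023 (ND2) and 0.037 (CYTB) with overlapping groups, and all but CYTB changed sign with an array left out. The probe sets of these genes were all above a log2 level of 10.05.

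Assembly factors build the complexes and are not part of them. Of 18 tested for complex I, 0 were called in either direction, against 0.0246% of all genes higher and 0.0164% lower. Their median was 0.019. Cox16 was counted in this list although it is better known from complex IV assembly, and it was at 9.05, 9.004 and 8.99 on the Tel+GW9662+LPS arrays, against 9.27, 9.27 and 9.25 on the Tel+LPS arrays. Its groups lay well apart, with a difference of -0.25 ± 0.059, but the adjusted limma p was 0.581. Ecsit, which acts in complex I assembly and in TLR signalling, was wholly above, by 0.16 ± 0.069 (adjusted p = 0.994 in limma). The medians were -0.067 for 4 factors of complex II, -0.040 for 5 of complex III, -0.025 for 19 of complex IV and 0.0047 for 4 of complex V, with none called. Among them Sdhaf1 differed by 0.11 ± 0.086, Sdhaf3 by -0.10 ± 0.10, Ttc19 by -0.12 ± 0.15, Bcs1l by 0.062 ± 0.071, Cmc1 by -0.12 ± 0.065, Coa5 by -0.10 ± 0.075, Atpaf1 by -0.040 ± 0.077 and Atpaf2 by 0.038 ± 0.061.

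The carriers that link the complexes gave no call either, where 0.0246% of all genes were called higher and 0.0164% lower. Cycs, cytochrome c, was at 12.47, 12.33 and 12.29 on the Tel+GW9662+LPS arrays, against 12.37, 12.35 and 12.34 on the Tel+LPS arrays, a difference of 0.014 ± 0.069. Of 11 tested genes of cytochrome c and of ubiquinone synthesis and handling, 7 had a positive difference (median 0.032). Coq10a, a ubiquinone-binding protein, differed by 0.16 ± 0.074 with groups that did not overlap, and Coq8a by 0.12 ± 0.077. The tricarboxylic acid cycle feeds complexes I and II. In a list of its genes and those of pyruvate dehydrogenase, 5 of 15 tested had a positive difference (median -0.024). Pdhb, of pyruvate dehydrogenase, differed by -0.12 ± 0.076, and Cs, citrate synthase, by 0.069 ± 0.064.

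The known regulators of subunit genes were tested as a list of 18, with a median of -0.037. None were called, against 0.0246% of all genes higher and 0.0164% lower. Nrf1 differed by -0.061 ± 0.075, Gabpa, the DNA-binding subunit of GABP, by -0.074 ± 0.098, Tfam, which packs the mitochondrial genome and is needed to transcribe it, by -0.077 ± 0.11, and Esrra by 0.0071 ± 0.097. Ppargc1b, the gene of PGC-1 beta, differed by -0.13 ± 0.074. Ppard, a relative of Pparg, was at 8.93, 8.73 and 8.95 on the Tel+GW9662+LPS arrays, against 8.79, 8.60 and 8.55 on the Tel+LPS arrays, a difference of 0.22 ± 0.091 with overlapping groups, an unadjusted limma p of 0.0407 and an adjusted p of 0.994. Pparg itself, the target of GW9662, was below the level threshold and not tested, at a mean of 5.44 in Tel+GW9662+LPS cells and 5.49 in Tel+LPS cells. Ppargc1a, the gene of PGC-1 alpha, was also below it and not tested, at 3.99 in Tel+GW9662+LPS cells and 4.15 in Tel+LPS cells. Its groups did not overlap, with a difference of -0.16 at this low level. A low signal of these probe sets does not show that the protein was absent.

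**Figure D4:**
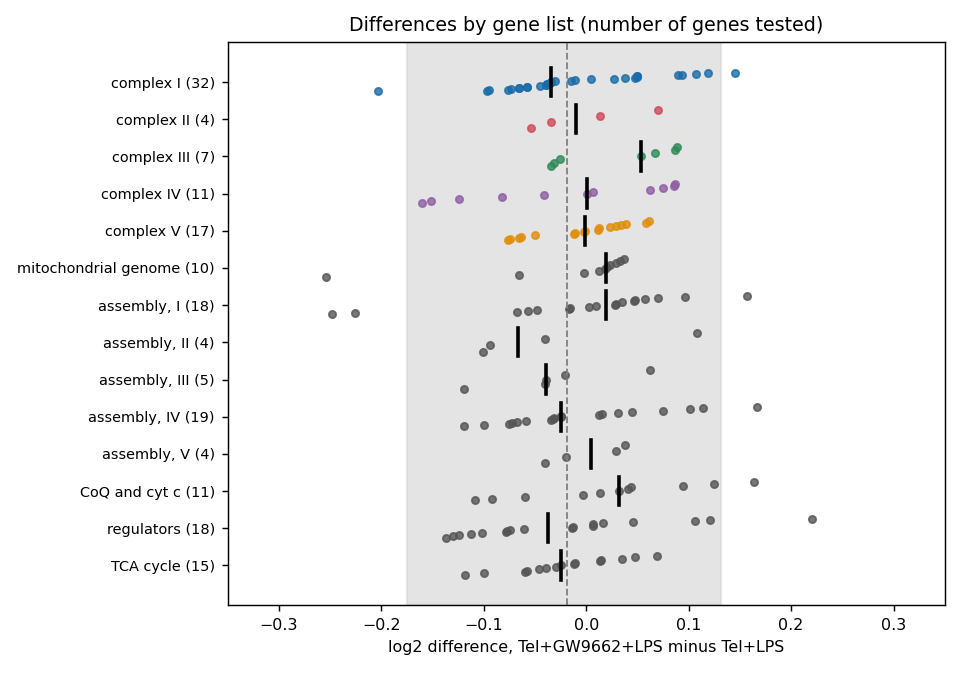
Difference in log2 level, Tel+GW9662+LPS minus Tel+LPS (horizontal axis), of every tested gene in the 5 complexes and in the lists of related genes, with the number tested beside each name. Points are genes, black bars medians, the dashed line the median of all genes tested (-0.019), and the grey band the span between the 5th and 95th percentiles of all genes. The 5 complexes lie within the band but for Ndufc1 and Ndufs3. No gene shown passed an adjusted p of 0.05, which 0.0246% of all genes passed as higher and 0.0164% as lower. The list labelled TCA cycle (tricarboxylic acid cycle) also holds genes of pyruvate dehydrogenase.

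Some values rest on uncertain probe sets. A further, dim probe set of Cox5b, below the level threshold, was at 5.92, 5.31 and 5.30 on the Tel+GW9662+LPS arrays, against 4.59, 5.08 and 5.04 on the Tel+LPS arrays, with groups that did not overlap and a difference of 0.61. Averaging both probe sets gave 0.35 for Cox5b, with an unadjusted limma p of 0.00932 and an adjusted p of 0.914. This pair was picked out after its values were seen. Second probe sets disagreed in sign with the brightest for Cox7b (0.17 beside -0.16), Ndufa12 (-0.14 beside 0.093) and Ndufa11 (-0.015 beside 0.090), and had the same sign for Atp5d, Atp5e, Atp5g2, Atp5h and Ndufa8. Pseudogenes that carry a member's name and could share its signal are given in RefSeq for 10 members, among them Cox7c, Cox5b, Uqcrh, Atp5l and Ndufs5. Copies under other names were not searched for. A probe set shared by Uqcrb and Gm10767 differed by 0.033, against -0.026 for Uqcrb alone, with overlapping groups in both. A brighter probe set shared by Ndufs5 and its pseudogene differed by -0.062, against 0.11 for Ndufs5 alone, which was 0.0061 without Tel+LPS replicate 1 and 0.24 without Tel+LPS replicate 3. The members just above the level threshold were Ndufb11 (6.17, difference -0.039 ± 0.11), Ndufs5 (6.28) and Cox6a2 (6.63), and those just below it Cox6b2 (5.83), Ndufa4l2 (5.31) and Cox8b (5.28). The remaining members below it were Cox8c, Atp5c1-ps (4.20), Uqcrh-ps1 (3.81) and Cox7b2, and 2 of these, Atp5c1-ps and Uqcrh-ps1, are pseudogenes.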

How the data were processed

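Transcript levels in 6 BV2 samples (300 ng of RNA each) were read on Affymetrix mouse whole-transcript arrays. The array names give the second-generation gene array, while the labelling protocol in the labels names its predecessor. The authors deposited log2 values from RMA; the submitters' processing notes name Expression Console. The file headers name Affymetrix Power Tools 1.4.1.46 for background correction, quantile normalization over the 6 arrays and median polish. The annotation version was not given in the sources used here.

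Names came from the platform annotation: of 41345 probe sets, 23521 carried 1 symbol, 1820 several and 16004 none. All 78 member symbols matched a table of mouse RefSeq genes. Each of the 22180 genes took its brightest probe set, and 12212 with a mean log2 level of at least 6.15 were tested with limma 3.58.1 in R 4.3.3 (lmFit, eBayes, group as the only term), with adjustment by Benjamini-Hochberg over all of them at 0.05. Differences are Tel+GW9662+LPS minus Tel+LPS on the log2 scale with the moderated SE. The number of arrays, 3 a group, limits the precision. The scripts were tested on simulated data. Promoter windows are RefSeq's (GRCm38.p6), matched by gene identifier, and no other genome was used.

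Members, lists, motifs and the rule for named genes (the 4 smallest p of each complex, alternative and core subunits, members near the threshold, subunits outside the naming rule, and the 2 smallest p of each list) were chosen with earlier results of these data known. Genes with second probe sets, Cox7b, Cox5a and the further subunits described by role were named after their values were seen. Equal replicate numbers were set against each other after removing group means and correlated at 0.29, -0.45 and -0.12, so the numbers were not taken to pair samples. Alternatives were the second deposited table with 2 decimals, no or a stricter level filter, other probe set rules, other scalings, other variance models, array weights, a replicate block and leaving out each array. Chosen after seeing the data were leaving out both arrays that stood apart, keeping probe sets with several symbols, and moving Ndufa4 to complex IV.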

Additional observations from a re-analysis of the deposited data

How the results depend on the processing

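No subunit passed an adjusted p of 0.05 under any alternative, and the smallest adjusted p of a subunit ran from 0.182 (array weights, which gave Tel+LPS replicate 1 a weight of 5.74) to 1.00. Subunits at an unadjusted p under 0.05 numbered 5 higher with array weights (7.04%, against 6.31% of all genes). Elsewhere there were at most 2 (2.82%) in either direction. Counts of 2 higher arose with probe sets averaged (against 1.68% of all genes), without moderation (2.23%), without Tel+LPS replicate 3 (2.21%) and without both arrays apart (2.9%). Without Tel+LPS replicate 3, 2 were also lower, against 3.55%. With probe sets averaged, the Tel+GW9662+LPS arrays lay wholly above for 4 subunits (5.63%, against 4.06%) and wholly below for 0, against 5.45%. Medians over subunits ranged, with 1 array or both arrays that stood apart left out, from -0.042 to 0.041 for all, -0.061 to 0.057 for complex I, -0.041 to 0.022 for II, -0.0090 to 0.067 for III, -0.055 to 0.019 for IV and -0.050 to 0.011 for V. The median of complex III was 0.014 with no level filter and with the stricter one, which change the members tested. The median of all genes was -0.0039 after median centring and 0.0014 after repeated quantile normalization. Over all genes, calls of 3 higher and 2 lower became 4 and 6 after median centring and likewise after quantile normalization, 6 and 7 with a variance trend, 27 and 22 with array weights, 0 and 1 with no level filter, 0 and 3 with all probe sets, 0 and 2 with robust moderation, and 0 and 0 without moderation, with the replicate block (where 379 genes had an unadjusted p under 0.05 against 543) and without both arrays apart. With 1 array left out they were 0 higher and 0 to 2 lower. The replicate block changed no call of a subunit. After removing group means, replicates 1 of the 2 groups correlated best with each other (0.29). Replicates 2 (-0.45) and 3 (-0.12) did not.

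Of 89 named genes, 43 (28 of 54 members) changed sign in some alternative, and the cause was not tested. With array weights these were Sdha -0.0022, Atp5l 0.013, Cox6a1 -0.0046, Atp5g1 -0.030, Atp5g2 -0.036, Atp5a1 -0.012, Ndufb11 0.055, Ndufab1 -0.058, Cox4i1 0.024, ND2 0.11, Ndufa13 0.0030, Uqcrb 0.031 and Uqcr11 0.021. After median centring they were Atp5g3 0.0027, Cox4i1 0.013, ND2 0.013 and Atp5o 0.0041, and after quantile normalization Atp5g3 0.025, Atp5a1 -0.0035, Cox4i1 0.033 and ND4 -0.011. With several symbols kept in it was Ndufs5 -0.062, and with probe sets averaged Cycs -0.066, Ndufa12 -0.024 and Cox7b 0.0064. Ranges with 1 array or both of those left out were Sdhd -0.12 to 0.0091, Sdhc -0.16 to 0.051, Sdha -0.040 to 0.069, Uqcrq -0.0090 to 0.17, Cox6a1 -0.038 to 0.045, Cox6a2 -0.17 to 0.0056, Cox6b1 -0.12 to 0.016, Cox7a2l -0.084 to 0.078, Cox8a -0.034 to 0.17, Atp5g1 -0.12 to 0.13, Atp5g2 -0.089 to 0.085, Atp5g3 -0.10 to 0.020, Ndufs1 -0.13 to 0.077, Ndufs7 -0.039 to 0.10, Ndufs8 -0.15 to 0.081, Atp5a1 -0.049 to 0.083, Ndufb11 -0.12 to 0.057, Ndufab1 -0.029 to 0.11, Cox4i1 -0.025 to 0.027, Cycs -0.040 to 0.051, ND1 -0.039 to 0.072, ND2 -0.063 to 0.090, ND4 -0.016 to 0.048, ND4L -0.023 to 0.089, ND5 -0.048 to 0.12, COX1 -0.0080 to 0.097, COX3 -0.0021 to 0.083, Ttc19 -0.23 to 0.033, Atpaf1 -0.089 to 0.027, Tfam -0.16 to 0.039, Gabpa -0.14 to 0.015, Esrra -0.043 to 0.094, Ndufa11 -0.033 to 0.19, Ndufa13 -0.075 to 0.022, Uqcrb -0.051 to 0.018, Uqcr11 -0.10 to 0.041, Cox7b -0.28 to 0.019, Atp5d -0.17 to 0.011, Atp5k -0.016 to 0.084 and Atp5o -0.083 to 0.055. The other genes of this count kept their sign in every alternative run for them.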
